A study of Drosophila sechellia with 6 samples.

Results

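The thioester-containing protein genes and *Relish* (*Rel*) were taken from the table of group values by name, as every entry called *Rel* or *Tep* followed by a digit. Of the 17275 entries in the table, 6 met this rule, namely *Tep1*, *Tep2*, *Tep3*, *Tep4*, *Tep6* and *Rel*. Poly(A) RNA was sequenced from whole adult females of *Drosophila sechellia* strain 14021-0428.25, a fly that feeds on a host fruit rich in octanoic acid (OA). There were 3 libraries from flies on control food and 3 from flies on food with 0.7% OA, each made from 10 pooled flies after 24 hr on that food. The labels give an age of 1 to 4 d, while the flies were collected at 0 to 3 d. All libraries came from this 1 strain, and no other genotype or agent was used. The comparison asks how the transcripts of these immune genes stood after a day of exposure to OA.

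Thioester-containing proteins are secreted relatives of vertebrate complement factors and macroglobulins. Several of them carry a reactive thioester bond by which they can attach to the surface of a microbe or parasite and mark it for uptake by blood cells. Relish is the NF-kB factor of the Imd pathway, the branch of fly immunity that responds mainly to the peptidoglycan of Gram-negative bacteria. After cleavage its Rel-homology part enters the nucleus and switches on genes for antimicrobial peptides, the cecropins among them. These roles are known from *D. melanogaster*. In a whole fly such transcripts come from the fat body, the blood cells, the gut and other tissues together, and fewer cells of a type and less RNA per cell cannot be told apart.

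The authors deposited 1 FPKM value per gene and group (a read measure scaled both to sequencing depth and to the length of the transcript, so that levels can be compared between genes). No SD is given, since values of single libraries were not used. The p-values and q-values of the authors' own comparison of the libraries were not used either. The differences below were therefore not set against the variation among the 3 libraries on 1 food. For the change in OA, 1 was added to both group values and the log2 of their ratio, OA over control, was used, which makes changes of low genes look smaller than they are. A mean of the 2 group values of at least 1 FPKM was required of an entry, which 12203 entries met, and a change of at least 1.5-fold on this scale in either direction was counted. The genes *Tep2*, *Tep3*, *Tep4*, *Tep6* and *Rel* met the filter and *Tep1* did not. Of those 5 genes, 0 changed by 1.5-fold, against 13.7% of all entries past the filter (6.11% higher and 7.56% lower). With 5 genes, this count is too small to set apart from that share.

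*Tep4* had the highest level of the group. In *D. melanogaster* it is known as a marker of blood cell progenitors. Which cells of these whole adult flies gave its transcripts was not tested. *Tep4* lies on scaffold 7 from 3164251 to 3170740 (FBgn0172276, positions counted from 1 in assembly GCA_000005215.1). It stood at 122.8 FPKM in control against 139.4 FPKM in OA, a log2 change of 0.18. The control level of *Tep4* lay above 84.4% of the entries past the filter and its OA level above 87.2%. It was thus among the more abundant transcripts of the whole fly on either food.

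*Tep2* and *Tep3* are neighbours on scaffold 3. *Tep2* has been tied to the uptake of Gram-negative bacteria by cultured *D. melanogaster* blood cells, and *Tep3* to that of Gram-positive bacteria. *Tep2* (FBgn0168378, 3207752 to 3215576) stood at 34.2 (control) and 33.05 FPKM (OA), a log2 change of -0.05. *Tep3* (FBgn0171429, 3217256 to 3224593) stood at 9.77 FPKM on control food and 11.2 FPKM on OA, a log2 change of 0.18. The spans of the pair are 1679 bases apart and no other entry of the table lies between them. Their levels were not alike, with *Tep2* at 3.50 times *Tep3* in control and 2.94 times in OA.

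*Tep6*, known in *D. melanogaster* also as *Macroglobulin complement-related*, differs from its relatives in that it lacks the thioester and is needed for the septate junctions that seal epithelia. It lies on the same scaffold, 347255 bases beyond *Tep3* (FBgn0168108, 3571849 to 3577498). It stood at 24.7 FPKM in control against 24.9 FPKM in OA. Its log2 change of 0.01 was the smallest of the 5 genes, and only 3.38% of the entries past the filter had a smaller absolute change.

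*Tep1* was near 0 on both foods. Its transcript is known from *D. melanogaster* to be induced by infection. The entry on scaffold 5 (FBgn0172832, 4619992 to 4624961) stood at 0.0909 (control) and 0.257 FPKM (OA). Both values are below the filter and no fold is given for them. The number of reads behind them is unknown, so a difference in *Tep1* was not detectable in these values.

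**Figure D1:**
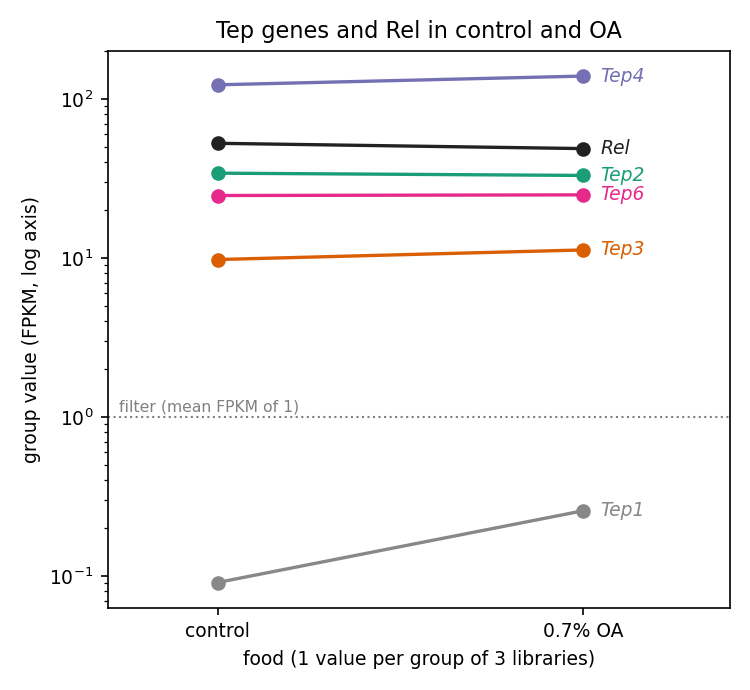
Group value of each gene in FPKM (log axis) on control food and on food with 0.7% OA; each point is the authors' single value for 3 libraries, lines join the groups of 1 gene, and no error bar can be drawn. *Tep4* is on top at 122.8 and 139.4 FPKM, *Tep1* lies below the dotted filter line in both groups, and the order of the genes is the same on both foods.

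The order of levels was *Tep4*, *Rel*, *Tep2*, *Tep6*, *Tep3* and *Tep1* in control and again in OA. Without values per library it cannot be said which neighbours in this order differ beyond their spread. The closest pair was *Tep2* and *Tep6*, with *Tep2* at 1.38 times *Tep6* in control and 1.32 times in OA. The widest step among the 5 genes past the filter was in control that from *Tep6* to *Tep3*, at 2.53 times, and in OA that from *Tep4* to *Rel*, at 2.86 times.

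Summed over its 5 entries, the *Tep* family stood at 191.6 FPKM on control food and 208.9 FPKM on OA, a log2 change of 0.12. *Tep4* alone made up 64.1% of this sum in control and 66.7% in OA. Of the difference of 17.3 FPKM between the groups, 16.6 FPKM came from *Tep4*. Without *Tep4* the sum was 68.7 FPKM in control against 69.5 FPKM in OA, a log2 change of 0.02. The share of *Tep2* was 17.8% in control and 15.8% in OA, and that of *Tep6* was 12.9% and 11.9%. *Tep3* held 5.10% and 5.38%.

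*Rel* lies on scaffold 0 from 17007184 to 17010392 (FBgn0069546). It stood at 52.6 (control) and 48.8 FPKM (OA), a log2 change of -0.11. Of the entries past the filter, 26.4% had a smaller absolute change than *Rel*. *Tep4* was at 2.33 times the level of *Rel* in control and at 2.86 times in OA. *Tep2* stood at 0.649 and 0.678 of the level of *Rel*, and *Tep6* at 0.469 and 0.512.

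The spread of changes over entries of similar level gives a scale for these values, although it is a spread over genes and not over libraries. Of the 4212 other entries with a mean level within 2-fold of that of *Rel*, the log2 changes from percentile 5 to percentile 95 ran from -0.55 to 0.50, and 7.76% were past 1.5-fold. For *Tep4* the corresponding range over 2157 entries was -0.82 to 0.51, with 11.0% past 1.5-fold. *Tep3*, the lowest of the 5 genes, was compared with 3153 entries, whose changes ran from -0.67 to 0.62. Around *Tep2* the range over 4620 entries was -0.51 to 0.51, and around *Tep6* it was -0.52 to 0.52 over 4592 entries. Each of the 5 genes lay inside the range of its own level.

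**Figure D2:**
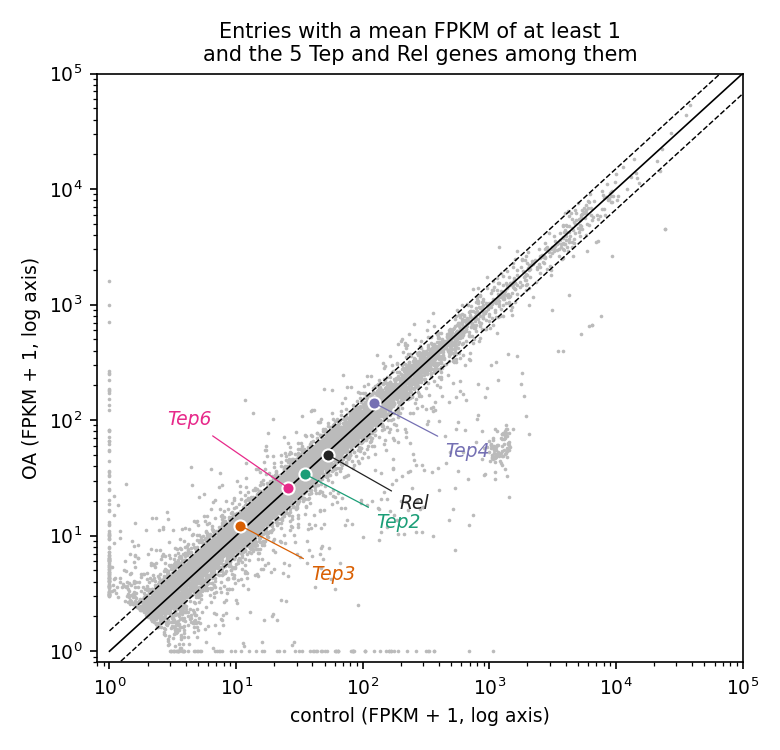
Each grey point is 1 of the 12203 entries with a mean of at least 1 FPKM, with control FPKM + 1 on the horizontal and OA FPKM + 1 on the vertical log axis; the solid line marks equal values and the dashed lines a 1.5-fold change. The 5 coloured points, *Tep2*, *Tep3*, *Tep4*, *Tep6* and *Rel*, lie between the dashed lines.

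For *Rel*, *Tep2* and *Tep6* the sign of these small changes depended on the scaling. The median log2 change of all entries past the filter was 0.05 as deposited and 0.19 when both groups were brought to the same total FPKM. Structural RNA entries summed to 284656 FPKM on control food and 93809 FPKM on OA, and with the totals set equal without them the median was 0.07. Relative to the median of all entries, *Rel* was at -0.16 as deposited and at -0.16 with equal totals, and *Tep2* at -0.10 and -0.10. *Tep3* was at 0.13 and 0.13, *Tep4* at 0.13 and 0.14, and *Tep6* at -0.04 and -0.04. *Rel*, *Tep2* and *Tep6* thus lay below the median entry and *Tep3* and *Tep4* above it. Equal totals multiply each OA value by the same factor, so these positions could hardly differ between the scalings. Read without the median, the log2 changes of *Tep2* and *Rel* were positive with equal totals, at 0.10 and 0.04. The median over the 5 genes was 0.01.

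Few other immune genes carry a name in the table, so the pathways around *Rel* could be followed only in part. Of 30 names searched for the Imd pathway, *Rel* was the 1 found, and 0 were found of 30 names for the Toll pathway, 13 for the JAK-STAT pathway, 24 for phagocytosis receptors and nimrod proteins and 12 for melanization. Among antimicrobial peptides, 4 of 37 names were found and 3 of these entries passed the filter. These 3, the cecropins *CecA1*, *CecB* and *CecC*, were each at least 1.5-fold lower in OA, against 7.56% of all entries past the filter. The 3 cecropins lie close together on scaffold 4, from 4888667 to 4894161, and belong to 1 gene family. They may therefore not be separate cases to set beside that share. *CecA1* stood at 872.4 FPKM in control against 80.3 FPKM in OA, and *CecC* at 214.5 and 83.1 FPKM. *CecB* stood at 22.8 FPKM in control and was listed at 0 in OA, and *Anp*, the fourth peptide gene, was listed at 0 in both groups. Of the Turandot genes, which encode secreted stress proteins, 5 of 8 entries passed the filter, and these 5 were at least 1.5-fold lower in OA, with a median log2 change of -1.58. The 2 entries named *TotA1* and the 2 named *TotX2* may share reads. *TotA1* had the highest level of the list, with 702.3 (control) and 331.2 FPKM (OA) at the entry from 40552 to 41027 of scaffold 27. While the cecropin and Turandot entries past the filter were lower, *Rel* and the 4 *Tep* genes past the filter stayed within 1.14-fold of their control level on the scale used. This contrast between groups of genes was not tested, and the lists were drawn up with earlier results of these data known.

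**Figure D3:**
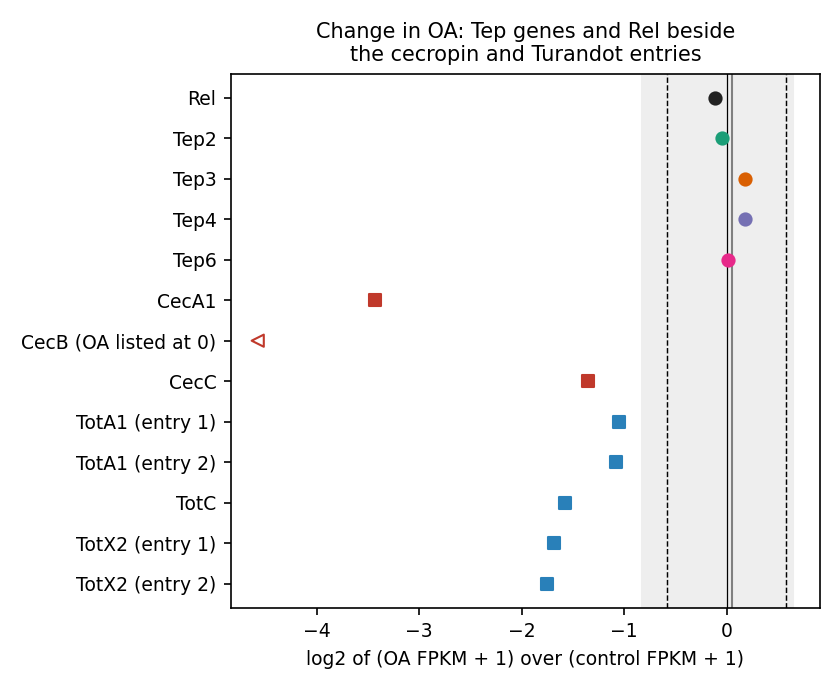
Log2 change in OA for *Rel* and the *Tep* genes (circles), the cecropins (red squares) and the Turandot entries (blue squares) that passed the filter; the grey band spans percentile 5 to percentile 95 of all entries, from -0.82 to 0.65, the grey line is their median, the dashed lines mark 1.5-fold, and the open triangle marks *CecB*, listed at 0 in OA, whose position is set by the pseudocount. The 5 circles sit between -0.11 and 0.18, and each square or triangle lies to the left of the band.

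The labels call the samples whole female flies, and the named markers were set beside this. *Yp2*, a yolk protein made in the female fat body and ovary, stood at 11392 FPKM on control food and 15455 FPKM on OA, and the eggshell gene *Vm32E* at 983.7 and 718.4 FPKM. Of the 4 ovary and eggshell genes found by name, 0 changed by 1.5-fold, a count too small to set apart from the 13.7% of all entries. Of 7 named genes for male accessory gland proteins, 5 were listed at 0 in both groups and the highest value was 0.375 FPKM. Of 9 names searched as fat body markers, the alcohol dehydrogenase gene *Adh* was the 1 found. *Adh* stood at 2865 FPKM in control against 3180 FPKM in OA, and 1 gene cannot stand for that tissue. The names of 13 housekeeping genes and of 14 blood cell markers matched 0 entries, so the part of blood cells in the *Tep4* difference was not tested. Among gut genes, 3 of 10 were at least 1.5-fold lower, against 7.56% of all entries past the filter, and 0 were higher, against 6.11%. The maltase *Mal-A7* was another of the lower genes, at 115.7 and 66.3 FPKM. The part of the gut in the values of *Rel* was not tested.

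On the scaffolds, no other entry overlapped any of the *Tep* genes or *Rel*. Within 20000 bases of *Rel* lay 7 entries, all past the filter, and 0 of them changed by 1.5-fold, against 13.7% of all entries past the filter, with log2 changes from -0.52 to 0.44. The nearest began 548 bases after *Rel* and stood at 114.2 (control) and 79.5 FPKM (OA). Around *Tep2*, 7 of 9 entries passed the filter, *Tep3* among them, and 0 were past 1.5-fold. Around *Tep3* 9 of 11 entries passed the filter and around *Tep6* 4 of 4, again with 0 past 1.5-fold. In sets of so few entries a count of 0 says little beside that share. Log2 changes ran from -0.554 to 0.183 around *Tep2*, from -0.565 to 0.209 around *Tep3* and from -0.581 to 0.288 around *Tep6*. The lowest of each came close to the fold, which lies at a log2 of 0.585 in either direction. *Tep1* lay among low entries, of which the highest stood at 4.96 FPKM in control, and both of its nearest neighbours were listed at 0 in both groups.

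Of the 6 genes, *Tep4* had the most neighbours past the fold, and also the most neighbours. Of the 16 entries within 20000 bases of it, 12 passed the filter, 2 of these were at least 1.5-fold higher in OA, against 6.11% of all entries past the filter, and 4 were at least 1.5-fold lower, against 7.56%. Whether these 12 entries differ from those shares was not tested. The nearest entry before *Tep4*, GM17365, ended 2848 bases away and stood at 11.7 FPKM on control food and 19.5 FPKM on OA. GM17362, also among the 2 higher entries, was low, at 1.22 and 3.53 FPKM. The nearest entry after *Tep4*, GM17367, began 1834 bases away and was below the filter, at 0.379 and 0.365 FPKM. GM17369, which began 8299 bases after *Tep4*, stood at 82.9 FPKM in control against 37.5 FPKM in OA, and was picked after its values were seen. The microRNA entry *mir-2a-1*, also picked so and among the 4 lower entries, stood at 260.9 FPKM in control and was listed at 0 in OA. It is a very short entry in libraries made from poly(A) RNA, where such a value is uncertain. The table does not pair the GM numbers with gene names.

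**Figure D4:**
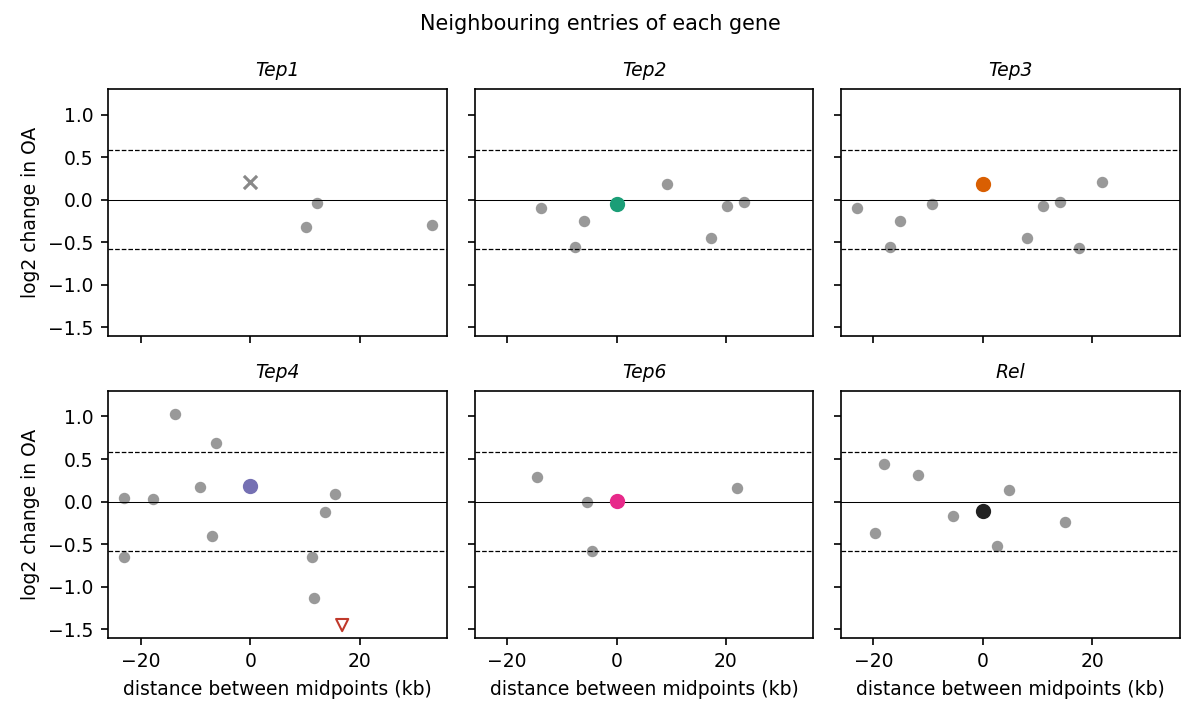
Log2 change in OA of each entry within 20000 bases of a gene that passed the filter (grey points) against the distance between midpoints in kb, with the gene itself in colour at 0 (a cross for *Tep1*, below the filter) and dashed lines at 1.5-fold. Entries past the dashed lines occur around *Tep4* alone among these 6 genes, 2 above and 4 below. The lowest points around *Tep2*, *Tep3* and *Tep6*, at -0.554, -0.565 and -0.581, lie just inside the lower line. The open triangle around *Tep4* stands for *mir-2a-1*, among the 4 below. It was listed at 0 in OA and is drawn at the lower edge, not at its value.

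Genes of like pattern were sought among the 309 other named protein entries past the filter, as the 2 closest to each gene in log2 (FPKM + 1) over the 2 group values. With only 2 values a gene, this finds entries of the same level and a like difference and nothing more. The closest to *Rel* were *nvd*, at 53.2 (control) and 48.6 FPKM (OA), and *Est-6*, at 53.4 and 48.0 FPKM. Next to *Tep6* were *Sur-8*, at 25.2 and 24.8 FPKM, and *Ntf-2r*, at 24.97 and 26.9 FPKM. *Tep3* was closest to *asun*, at 9.54 and 11.8 FPKM, and to the histone gene *His4*, at 10.01 and 10.7 FPKM. For *Tep2* they were *tef*, at 35.3 and 36.1 FPKM, and *cid*, at 30.2 and 34.2 FPKM. *Tep4* had the most distant matches, *Adk2-2* at 115.4 and 124.2 FPKM and *Desat2* at 122.0 and 122.0 FPKM.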

How the data were processed

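Reads of 6 poly(A) libraries of whole flies, 3 control and 3 OA, were aligned by the authors with Bowtie2 to the Ensembl assembly GCA_000005215.1 of *D. sechellia* after FastQC. Bowtie2 does not split a read over an intron, so reads across exon junctions are largely lost. The deposited FPKM values were made by the authors with Cuffdiff, as 1 value per gene and group, from annotation release 34. Libraries were scaled by the geometric method, and values were corrected for length and for sequence bias. Tool versions are not given in the sources used here. The table also holds the fold change, test statistic, p-value and q-value of the authors' own comparison, which were not used. Depth per gene is unknown, so no counting interval is given.

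Here log2 changes were computed with a pseudocount of 1 FPKM after a filter of a mean of 1 FPKM, and a change of at least 1.5-fold was counted. Start positions in the table count from 0: of 5749 GM entries under 1000 bases with a locus of their own, 66.7% then span a multiple of the codon length, and 17.0% if counted from 1. Named were all genes of the rule and the 2 nearest named entries of each gene past the filter. Some of their neighbours by position and some of the highest or most changed members of the lists were also named. The gene table at hand, made for another assembly, gave no symbol for the GM numbers, and protein and promoter sequences were not used here. The genes and lists were chosen with earlier results of these data known. Alternatives to the pseudocount, scaling, fold and filter were tried. The steps were tested on simulated data with changes larger than the fold and little noise, which checks the arithmetic and not the calls in these data. Python 3.11.15, pandas 2.3.3, NumPy 2.4.6 and Matplotlib 3.10.9 were used.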

Additional observations from a re-analysis of the deposited data

How the results depend on the processing

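No paired analysis was possible because only 1 value is given for each group of libraries, and leaving out a library was not run for the same reason. In each of the 9 alternatives 0 of the *Tep* genes and *Rel* passed the fold. At 2-fold, with a pseudocount of 10 FPKM or with a filter of 10 FPKM, a count of 0 could only stay at 0. These settings therefore did not test it. At the lower of the other folds tried, 4129 of the 12203 entries passed the fold. With 5 genes past the filter, a count of 0 is too small to set apart from that share. A log2 change was counted as moved when its sign turned or it shifted by over 0.1. With both groups brought to the same total FPKM, the log2 change was 0.037 for *Rel*, 0.10 for *Tep2*, 0.32 for *Tep3*, 0.33 for *Tep4*, 0.16 for *Tep6* and 0.27 for the summed *Tep* level, since this setting multiplies each OA value by 1.11. *Tep6* was at -0.041 when centred on the median of all entries. The entries past the fold, 1668 as reported, were 783 with a pseudocount of 10 FPKM, 4129 at the lower of the other folds tried, 833 at 2-fold and 928 with a filter of 10 FPKM, by construction of these settings. Of the entries past the fold 44.7% were higher in OA as reported, against 63.8% with equal totals and 34.6% with a pseudocount of 10 FPKM. The changes of these genes were not set against the spread between libraries, because values per library and the authors' p-values were not used.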
